A study of Homo sapiens with 36 samples.

Results

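The SWI/SNF or BAF complexes are nucleosome remodelers, and the 10 genes described here encode their ATPases, core subunits and the large subunits that tell the complex types apart. The genes were chosen by name, wherever the tables listed SMARCA2, SMARCA4, SMARCB1, SMARCC1, SMARCC2, SMARCD1, ARID1A, ARID1B, ARID2 and PBRM1, and were followed in each of 3 gene tables. They are 10 of the 18078 genes that occur in at least 1 table, and all 10 were measured in all 3 tables, which hold 16431 genes (NT2/D1-A4), 17035 genes (2102EP-C1) and 16459 genes (2102EP-C1 knockdown). RNA-seq was done on 36 libraries, 3 for each of 4 arms in each experiment. NT2/D1-A4 and 2102EP-C1 cells are cisplatin-resistant derivatives of the human embryonal carcinoma lines NT2/D1 and 2102EP, from testicular germ cell tumors. In each line the arms were vehicle control cells, called untreated here (Control), and 0.5 µM cisplatin for 6 h (Cisplatin). The others were 1 µM GSK-J4 for 3 days (GSK-J4) and GSK-J4 followed by cisplatin (Combination). GSK-J4 inhibits KDM6A and KDM6B, the demethylases that remove the polycomb mark H3K27me3. In the knockdown experiment the arms were 2102EP-C1 cells with the empty vector pLKO.1 or with hairpins to both KDM6A and KDM6B (sh6A+6B), each untreated or given 0.5 µM cisplatin for 6 h. Each line is a single resistant derivative and each demethylase was targeted with a single hairpin, so that an effect of the clone or of the hairpin cannot be told apart from that of the line or of the knockdown. Per the study's methods, RNA was taken a day after the cisplatin treatment, not at the end of the 6 h exposure. Libraries were biological triplicates, and p values measure only the spread between those triplicates.

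SWI/SNF complexes use ATP to slide or evict nucleosomes and so open chromatin at promoters and enhancers, where they counteract polycomb repression. Each complex holds a single ATPase, SMARCA4 (BRG1) or its paralog SMARCA2 (BRM). In canonical BAF and PBAF it sits on a core with SMARCB1, a pair built from SMARCC1 and SMARCC2, and a SMARCD subunit. Canonical BAF adds ARID1A or ARID1B, while PBAF adds ARID2 and PBRM1. Pluripotent cells, which embryonal carcinoma resembles, are known for a form with SMARCA4 and SMARCC1 and little SMARCA2 or SMARCC2.

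Promoter sequence was available for 7 of the 10 genes in RefSeq (GRCh38.p14), with SMARCC1, SMARCC2 and ARID2 not matched. The 250 bases before the outermost annotated start are shown for 4 genes that the results turn on, SMARCA2 and SMARCB1 because GSK-J4 raised them in NT2/D1-A4 cells while it lowered 7 other members, and SMARCA4 and ARID1A because their response to cisplatin differed most between knockdown and vector cells. The windows are on the plus strand at chr9:2015097-2015346 (SMARCA2), chr19:10960780-10961029 (SMARCA4), chr22:23786716-23786965 (SMARCB1) and chr1:26695765-26696014 (ARID1A). Capitals mark the GC box, the letters GGGCGG or, on the other strand, CCGCCC.
SMARCA2: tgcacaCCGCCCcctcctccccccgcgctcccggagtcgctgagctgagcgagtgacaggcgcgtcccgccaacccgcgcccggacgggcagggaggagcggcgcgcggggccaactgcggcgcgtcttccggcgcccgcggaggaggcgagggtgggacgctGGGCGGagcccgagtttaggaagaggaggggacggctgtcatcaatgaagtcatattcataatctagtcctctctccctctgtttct
SMARCA4: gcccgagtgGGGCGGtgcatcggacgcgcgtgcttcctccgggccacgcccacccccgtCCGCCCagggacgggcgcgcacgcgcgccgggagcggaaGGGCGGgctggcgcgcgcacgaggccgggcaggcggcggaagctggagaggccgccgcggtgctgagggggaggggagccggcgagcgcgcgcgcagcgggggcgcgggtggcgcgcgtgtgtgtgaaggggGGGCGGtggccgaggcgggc
SMARCB1: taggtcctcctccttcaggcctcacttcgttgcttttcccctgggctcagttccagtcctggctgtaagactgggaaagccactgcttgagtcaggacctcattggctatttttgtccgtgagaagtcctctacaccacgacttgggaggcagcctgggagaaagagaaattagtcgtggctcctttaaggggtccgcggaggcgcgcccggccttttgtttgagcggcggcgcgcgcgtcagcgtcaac
ARID1A: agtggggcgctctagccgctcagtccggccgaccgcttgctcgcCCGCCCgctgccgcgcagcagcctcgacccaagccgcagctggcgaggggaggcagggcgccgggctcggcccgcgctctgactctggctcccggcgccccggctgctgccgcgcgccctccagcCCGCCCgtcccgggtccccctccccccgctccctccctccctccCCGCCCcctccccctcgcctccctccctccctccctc

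The SMARCA4 window held 4 GC boxes, that of ARID1A 3 and that of SMARCA2 2, whereas that of SMARCB1 held 0. SMARCD1 held 1 GC box and ARID1B and PBRM1 held 0. Over all 35116 promoter windows of this length 42.6% held at least 1. SMARCA2 has 4 annotated starts and SMARCA4, ARID1B and PBRM1 have 2 each, and windows before their other starts were not counted. CG dinucleotides, the substrate of DNA methylation, numbered 44 in the SMARCA4 window, 30 in ARID1A, 29 in SMARCA2, 28 in SMARCD1, 26 in PBRM1, 16 in SMARCB1 and 5 in ARID1B, against a median of 11 over all windows (quartiles 3 and 23). On GRCh38.p14 the SMARCA2 gene is at chr9:2015347-2193620, SMARCA4 at chr19:10961030-11062273, SMARCB1 at chr22:23786966-23838009, SMARCC1 at chr3:47585269-47781893 and SMARCC2 at chr12:56162359-56189483. SMARCD1 is at chr12:50085342-50100707, ARID1A at chr1:26696015-26782104, ARID1B at chr6:156776026-157210779, ARID2 at chr12:45729706-45908037 and PBRM1 at chr3:52545367-52685913. Counts per gene cannot separate isoforms of a subunit.

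Depth was 26.8 to 49.5 M counted reads per library in NT2/D1-A4 cells (M, 1000000 reads), 30.3 to 53.6 M in 2102EP-C1 cells and 79.4 to 100.9 M in the knockdown experiment. Every member was well counted, from 651 reads (SMARCA2 in an NT2/D1-A4 library) to 73380 reads in the knockdown experiment. The median SD of a member between triplicates, in log2 CPM (counts per 1000000 counted reads), was 0.054, 0.035 and 0.016 in the 3 experiments in that order, so that the smallest differences can be called only in the knockdown experiment. KDM6A was at 7.16, 7.17 and 7.15 log2 CPM in pLKO.1 libraries and 6.14, 6.09 and 6.20 in sh6A+6B libraries, a log2 fold change of -1.01 ± 0.027 (SE, adjusted p = 2.1e-18), and KDM6B was at 4.61, 4.66 and 4.63 against 3.51, 3.61 and 3.75 (-1.01 ± 0.047, adjusted p = 1.8e-14). With GSK-J4 alone KDM6B RNA rose instead, by 0.88 ± 0.061 on the log2 scale in NT2/D1-A4 cells (adjusted p = 1.2e-09). The rise in 2102EP-C1 cells was 0.81 ± 0.065 (adjusted p = 2.3e-10). KDM6A did not pass with GSK-J4 alone in either line (adjusted p = 0.24 and 0.17). The p53 targets CDKN1A, MDM2, BTG2 and FAS rose with cisplatin in 4 of 4 cases in each of the 3 experiments. All 14 embryonal carcinoma markers listed were measured, and their summed level was lowest in the Combination arm, at 8137 to 8882 CPM against 10251 to 10468 in NT2/D1-A4 Control and 11421 to 11835 against 13750 to 14117 in 2102EP-C1 Control. It was 11817 to 11855 CPM in sh6A+6B cells with cisplatin against 13099 to 13151 in pLKO.1 cells. Summed markers of other cell types stayed at 13.0 to 23.6 CPM in every library, with 8, 9 and 8 of 17 listed genes in the tables. The part of this marker shift in the results was not tested, and in bulk RNA a change in the cells present and a change of RNA per cell cannot be told apart.

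Levels of the 10 genes in untreated cells were compared per kb of exon. SMARCC1, the core scaffold subunit, was the most abundant transcript in all 3 experiments, at 63.6 CPM per kb in NT2/D1-A4 Control, 91.7 in 2102EP-C1 Control and 92.5 in pLKO.1 cells. SMARCD1 followed at 42.1, 42.3 and 39.6, and SMARCA4 at 23.8, 26.4 and 24.5. When the longest transcript was used as length SMARCA4 and SMARCD1 changed places in all 3 experiments, and so did several lower neighbors, among them SMARCC2, SMARCB1 and ARID1B in NT2/D1-A4 cells. PBRM1 was at 13.9 CPM per kb in NT2/D1-A4 and 23.8 in 2102EP-C1 Control, with ARID1A at 13.7 and 8.80 and ARID2 at 9.39 and 8.32. SMARCC2 was at 5.61 and 10.3 and SMARCB1, the subunit lost in rhabdoid tumors, at 4.16 and 4.53. By exon length the alternative ATPase SMARCA2 and the alternative subunit ARID1B were lowest, at 1.18 and 2.43 in NT2/D1-A4 and 2.87 and 1.35 in 2102EP-C1 cells, whereas by longest transcript SMARCC2 was below ARID1B in NT2/D1-A4. Neighbors in the order by exon length did not overlap between libraries except PBRM1 and ARID1A in NT2/D1-A4 and ARID1A and ARID2 in 2102EP-C1 cells. Tables were normalized separately, and levels between lines were not tested.

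**Figure D1:**
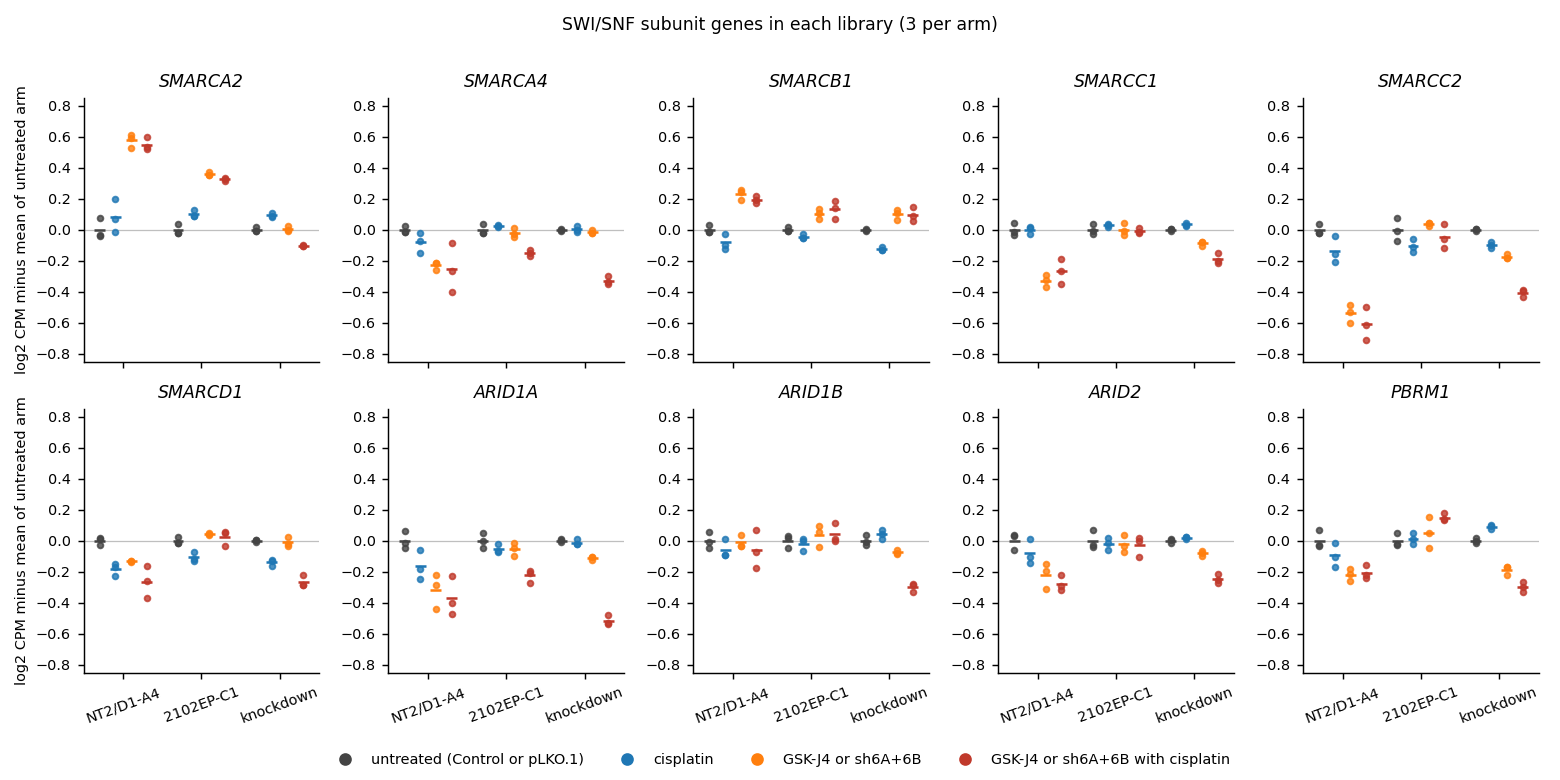
Expression of the 10 SWI/SNF genes in every library, as log2 CPM minus the mean of the untreated arm (vertical axis), for the 3 experiments side by side with 3 points per arm and a line at the arm mean. SMARCA2 stood above 0 in the GSK-J4 and Combination arms of both lines, and in the knockdown experiment 9 of 10 genes were lowest in sh6A+6B cells with cisplatin, SMARCB1 being the exception.

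The first question was what demethylase targeting alone did to the complex. In NT2/D1-A4 cells GSK-J4 changed 9 of 10 genes, with 2 that rose (24.5% of all genes rose) and 7 that fell (23.8% fell). The number that rose was near the background. SMARCA2 rose while its alternative SMARCA4 fell. SMARCA2 was at 4.58, 4.46 and 4.46 log2 CPM in Control and 5.03, 5.11 and 5.09 with GSK-J4, without overlap, a log2 fold change of 0.58 ± 0.056 (SE) or 1.49-fold (adjusted p = 9.8e-08). SMARCA4 was at 8.56, 8.52 and 8.52 against 8.27, 8.32 and 8.32, 14.6% lower (-0.23 ± 0.055, adjusted p = 0.002). Both ATPases thus moved beyond the spread between triplicates, in opposite directions.

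Among the core subunits of NT2/D1-A4 cells SMARCC2 had the largest fall. It was at 5.72, 5.67 and 5.67 log2 CPM in Control and 5.20, 5.09 and 5.16 with GSK-J4, 31.0% lower (-0.54 ± 0.055, adjusted p = 2.2e-07). Its partner SMARCC1 fell less, from 8.97, 8.91 and 8.89 to 8.55, 8.63 and 8.60 (-0.33 ± 0.039, adjusted p = 1.5e-06). SMARCD1, which links the complex to transcription factors, was at 7.71, 7.66 and 7.70 against 7.56, 7.56 and 7.55 (-0.13 ± 0.042, adjusted p = 0.014), a call that was lost with scaling to library size only (-0.087). SMARCB1 rose instead, from 6.09, 6.13 and 6.09 to 6.36, 6.35 and 6.30, 17.5% higher (0.23 ± 0.038, adjusted p = 5.7e-05). None of these 4 core genes overlapped between the arms, though the share of all genes without overlap is not given.

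The subunits that define BAF and PBAF were lower except for ARID1B. ARID1A, the DNA-binding subunit of canonical BAF, was at 7.83, 7.73 and 7.75 log2 CPM in Control and 7.33, 7.55 and 7.48 with GSK-J4 (-0.32 ± 0.062, adjusted p = 0.0003). ARID1B, its alternative, was at 6.76, 6.79 and 6.86 against 6.77, 6.84 and 6.77, with overlap and a 95% interval of -0.12 to 0.099 for the log2 fold change (adjusted p = 0.89). Of the PBAF pair ARID2 fell by 0.22 ± 0.048 on the log2 scale (adjusted p = 0.00089) and the bromodomain subunit PBRM1 by 0.22 ± 0.043 (adjusted p = 0.00036), both without overlap. The median log2 fold change was -0.22 over the 10 genes and 0.0084 over all genes.

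In 2102EP-C1 cells GSK-J4 changed 2 of the 10 genes, both of which rose (19.2% of all genes rose), and 0 fell (16.0% fell). The number that rose was thus near the background. An unadjusted p was under 0.05 for 2 members. They were SMARCA2 and SMARCB1, both of which also rose in NT2/D1-A4 cells. SMARCA2 was at 5.75, 5.75 and 5.81 log2 CPM in Control and 6.13, 6.15 and 6.13 with GSK-J4, 28.4% higher (0.36 ± 0.036, adjusted p = 1.1e-08). SMARCB1 was at 6.24, 6.22 and 6.22 against 6.34, 6.36 and 6.30 (0.10 ± 0.036, adjusted p = 0.026). The SMARCB1 call was lost in 4 of the 12 fits that left out a library, those without Control replicate 2 or 3 or GSK-J4 replicate 1 or 2, with adjusted p from 0.065 to 0.079.

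The other 8 genes lay between -0.055 (ARID1A) and 0.051 (PBRM1) with GSK-J4 in 2102EP-C1 cells, on the log2 scale. SMARCA4 was at 8.67, 8.72 and 8.66 log2 CPM in Control and 8.70, 8.66 and 8.64 with GSK-J4, with a 95% interval of -0.077 to 0.041 that does not reach the -0.23 of NT2/D1-A4 cells. SMARCC2 was at 6.50, 6.65 and 6.56 against 6.61, 6.61 and 6.59, with an interval of -0.048 to 0.12. The difference between the lines was not tested, since the tables were normalized separately. The median of the 10 genes was 0.037. After removal of a trend with length and GC content ARID2 (-0.097) and SMARCC1 (-0.068) also passed, bringing the count to 4. No share of all genes is given for that setting.

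The double knockdown changed 7 of 10 genes, with 1 that rose (25.6% of all genes rose) and 6 that fell (27.2% fell). PBRM1 and SMARCC2 fell most. PBRM1 was at 7.78, 7.79 and 7.76 log2 CPM in pLKO.1 and 7.61, 7.56 and 7.61 in sh6A+6B cells, 12.2% lower (-0.19 ± 0.019, adjusted p = 2.2e-08). SMARCC2 was at 6.58, 6.59 and 6.59 against 6.40, 6.40 and 6.43, 11.4% lower (-0.17 ± 0.020, adjusted p = 1.5e-07). ARID1A fell by 0.11 ± 0.020 (adjusted p = 4.6e-05), SMARCC1 by 0.087 ± 0.016 (adjusted p = 7.9e-05) and ARID2 by 0.081 ± 0.020 (adjusted p = 0.0018). ARID1B fell by 0.076 ± 0.024 (adjusted p = 0.012), a call that was lost without pLKO.1 replicate 1 (-0.059, adjusted p = 0.081).

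SMARCB1 was again the gene that rose, from 6.20, 6.20 and 6.19 log2 CPM in pLKO.1 to 6.30, 6.32 and 6.26 in sh6A+6B cells (0.099 ± 0.024, adjusted p = 0.0011). It rose with demethylase targeting in all 3 experiments, by 17.5%, 7.55% and 7.11%. SMARCA2 did not repeat its rise with GSK-J4. It was at 5.90, 5.90 and 5.92 in pLKO.1 and 5.93, 5.91 and 5.90 in sh6A+6B cells, with a 95% interval of -0.037 to 0.050, against 0.29 to 0.43 with GSK-J4 in the same line. SMARCA4 (-0.047 to 0.022) and SMARCD1 (-0.052 to 0.033) did not pass either. Once the trend with length and GC content was removed SMARCA4 was 0.090 higher and SMARCA2 0.047 lower, both past the test. In that setting, for which no share of all genes is given, 9 of 10 genes passed. ARID1A was then at -0.052, ARID2 at -0.15 and SMARCB1 at 0.19, each past the test as before. The median of the 10 genes was -0.079 on the log2 scale.

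**Figure D2:**
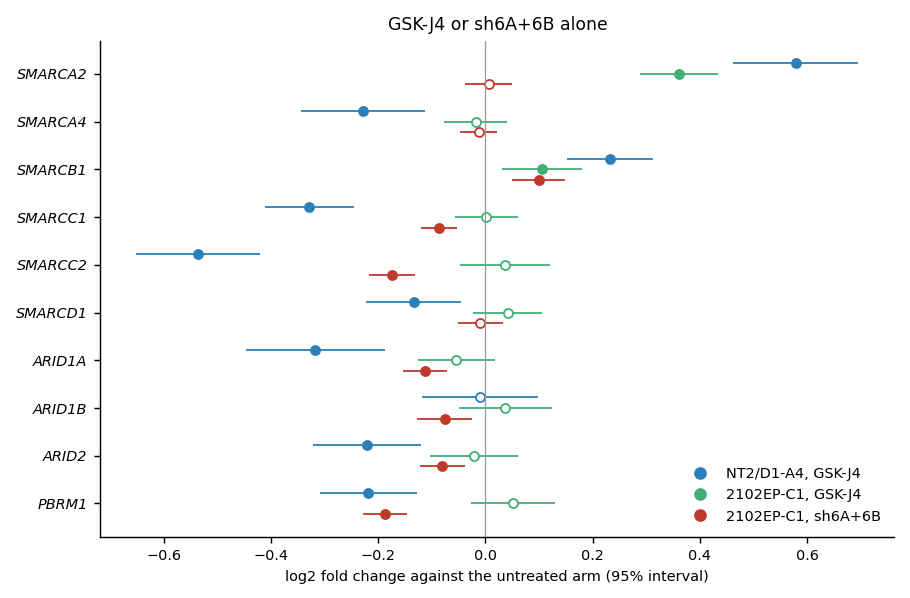
Log2 fold change of each gene with GSK-J4 or sh6A+6B alone against the untreated arm of the same experiment (horizontal axis), with 95% intervals and filled symbols for genes past an adjusted p of 0.05. SMARCB1 lay to the right of 0 in all 3 experiments, and SMARCA2 lay at 0.58 and 0.36 with GSK-J4 and at 0.0065 with sh6A+6B.

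Next, cisplatin was compared with no cisplatin in cells without demethylase targeting. SMARCD1 was the gene that fell in all 3 experiments. In NT2/D1-A4 cells it was at 7.71, 7.66 and 7.70 log2 CPM in Control and 7.52, 7.54 and 7.46 with cisplatin, 11.8% lower (-0.18 ± 0.042, adjusted p = 0.011). In the 2102EP-C1 experiment it was at 7.68, 7.72 and 7.68 against 7.62, 7.58 and 7.57 (-0.11 ± 0.031, adjusted p = 0.049). In pLKO.1 cells it was at 7.61, 7.60 and 7.59 against 7.43, 7.47 and 7.47 (-0.14 ± 0.020, adjusted p = 8.6e-06). The arms did not overlap in any of the 3. The NT2/D1-A4 call was lost without Cisplatin replicate 3 (-0.16, adjusted p = 0.059). The 2102EP-C1 call was lost with scaling to library size only (-0.096) and with a replicate block in the fit. It was also lost in 8 of 12 fits that left out a library, at -0.12 to -0.094 with adjusted p from 0.058 to 0.22. Those were the fits without any 1 Control or Cisplatin library, without GSK-J4 replicate 1 or without Combination replicate 2.

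SMARCD1 was the sole member that passed with cisplatin in NT2/D1-A4 (0 rose and 1 fell, against 5.85% and 3.58% of all genes) and likewise in the 2102EP-C1 line (0 rose and 1 fell, against 3.06% and 1.02%). Unadjusted p was under 0.05 for 5 and 3 members. With only the 6 libraries compared 3 members passed in each line, and without the length and GC trend 5 passed in NT2/D1-A4. Shares of all genes are not given for these settings. SMARCA4, SMARCB1, SMARCC2 and ARID1A did not pass in NT2/D1-A4 (adjusted p = 0.4, 0.2, 0.13 and 0.11). Their Cisplatin libraries were lower without overlap, by 0.080, 0.081, 0.13 and 0.16 on the log2 scale. The share of all genes without such overlap is not given, so that this is description only. In pLKO.1 cells 5 of 10 genes passed, with 2 that rose (17.9% of all genes), near the background, and 3 that fell (18.2%). Without the length and GC trend 0 rose and 5 fell, with no share of all genes given for that setting. SMARCA2 rose by 0.094 ± 0.021 (adjusted p = 0.0012) and PBRM1 by 0.088 ± 0.019 (adjusted p = 0.00095), while SMARCB1 fell by 0.12 ± 0.024 (adjusted p = 0.00021) and SMARCC2 by 0.099 ± 0.020 (adjusted p = 0.00052). SMARCA4, at 8.58, 8.58 and 8.57 log2 CPM without and 8.56, 8.60 and 8.58 with cisplatin, and ARID1A, at 6.96, 6.95 and 6.97 against 6.94, 6.97 and 6.94, overlapped. The medians of the 10 genes were -0.081, -0.019 and 0.0099 in the 3 experiments.

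In sh6A+6B cells cisplatin lowered 9 of 10 genes (22.7% of all genes fell) and raised 0 (22.1% rose). The largest fall was that of ARID1A, at 6.85, 6.85 and 6.83 log2 CPM without and 6.42, 6.43 and 6.48 with cisplatin, 24.4% lower (-0.40 ± 0.020, adjusted p = 2.5e-13). SMARCA4 fell from 8.58, 8.56 and 8.56 to 8.23, 8.24 and 8.28, 19.7% lower (-0.32 ± 0.017, adjusted p = 8.6e-13). SMARCD1 fell from 7.58, 7.63 and 7.57 to 7.31, 7.38 and 7.32 (-0.26 ± 0.020, adjusted p = 5.2e-10). In each of these genes every cisplatin library was below every library without it.

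The remaining falls in sh6A+6B cells reached across both complex types. SMARCC2 fell by 0.23 on the log2 scale (adjusted p = 2.6e-09), ARID1B by 0.22 (adjusted p = 8.8e-08), ARID2 by 0.17 (adjusted p = 3.7e-07), SMARCA2 and PBRM1 by 0.11 each (adjusted p = 0.00017 and 6.2e-05) and SMARCC1 by 0.10 (adjusted p = 1.7e-05). SMARCB1 did not pass, at 6.30, 6.32 and 6.26 log2 CPM without and 6.29, 6.35 and 6.26 with cisplatin and an interval of -0.050 to 0.048. The median of the 10 genes was -0.19. None of the 9 calls was lost when a library was left out.

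With GSK-J4 the same comparison gave fewer calls. In 2102EP-C1 cells 2 genes fell with cisplatin after GSK-J4 (8.1% of all genes fell) and 0 rose (7.64% rose), namely the same ATPase and ARID subunit that fell most in sh6A+6B cells. SMARCA4 was at 8.70, 8.66 and 8.64 log2 CPM with GSK-J4 and 8.56, 8.53 and 8.52 with the Combination (-0.13 ± 0.029, adjusted p = 0.0027). ARID1A was at 7.12, 7.08 and 7.03 against 6.94, 6.86 and 6.93, 11.1% lower (-0.17 ± 0.035, adjusted p = 0.0018). Both calls were lost when the trend with length and GC content was removed, at -0.013 and -0.081. For NT2/D1-A4 0 genes rose (0.712% of all genes) and 0 fell (0.548%) with limma-trend, 1 member had an unadjusted p under 0.05, and 0 passed with limma-voom but 1 without the length and GC trend. The values there ran from -0.13 (SMARCD1, adjusted p = 0.15, 7.56, 7.56 and 7.55 against 7.53, 7.43 and 7.32 log2 CPM) to 0.060 (SMARCC1). The medians were -0.014 and -0.044.

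**Figure D3:**
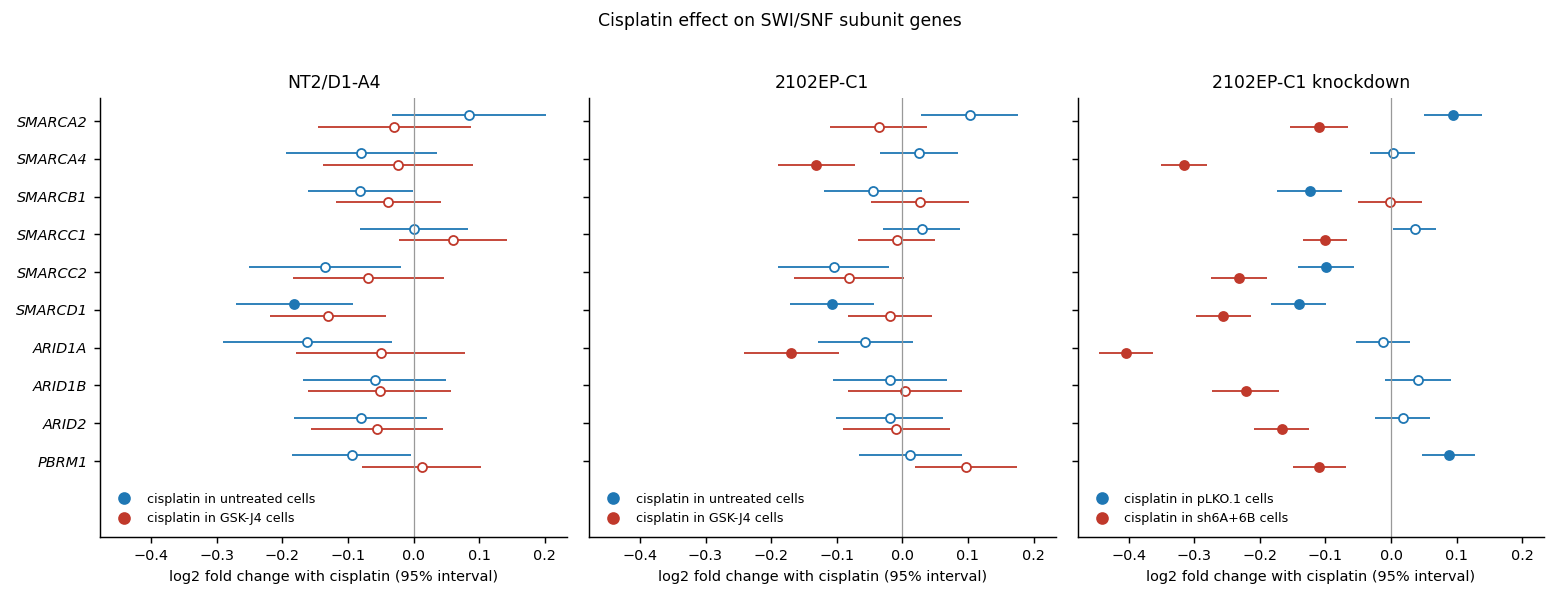
Log2 fold change with cisplatin (horizontal axis, 95% intervals) for each gene, 1 panel per experiment, in cells without and with GSK-J4 or sh6A+6B. Filled symbols passed an adjusted p of 0.05, and in the knockdown panel the sh6A+6B values lie to the left of the pLKO.1 values for 9 of 10 genes, farthest for ARID1A (-0.40 against -0.012) and SMARCA4 (-0.32 against 0.0023).

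Whether the response to cisplatin differed between sh6A+6B and pLKO.1 cells was tested as an interaction, the cisplatin effect in sh6A+6B minus that in pLKO.1 cells. It passed for all 10 genes, negative for 9 (18.0% of all genes) and positive for 1 (17.2%). It was -0.39 ± 0.028 for ARID1A (95% interval -0.45 to -0.33, adjusted p = 1.5e-10) and -0.32 ± 0.024 for SMARCA4 (-0.37 to -0.27, adjusted p = 2.6e-10). ARID1B followed at -0.26 (adjusted p = 1.7e-06), SMARCA2 at -0.20 (adjusted p = 7.8e-06), PBRM1 at -0.20 (adjusted p = 3.6e-06) and ARID2 at -0.18 (adjusted p = 1.6e-05).

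The core genes had smaller interactions in the knockdown experiment. They were -0.14 for SMARCC1 (adjusted p = 3.8e-05), -0.13 for SMARCC2 (adjusted p = 0.00073) and -0.11 for SMARCD1 (adjusted p = 0.0029). SMARCB1 was the positive value, at 0.12 ± 0.033 (adjusted p = 0.0053), since it fell with cisplatin in pLKO.1 cells and did not in sh6A+6B cells. In SMARCA2 and PBRM1 the sign of the cisplatin effect itself differed, a rise in pLKO.1 and a fall in sh6A+6B cells. The median of the 10 genes was -0.19, against -0.0042 over all genes.

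The interaction moved with transcript length over all genes of the knockdown table. From the shortest to the longest quintile of genes by longest transcript its median went from 0.13 to -0.15. Of the 10 members, 6 are in the longest quintile. With the trend kept, SMARCA2 and PBRM1 (-0.20 each), ARID2 (-0.18) and SMARCC1 (-0.14) lay nearest the median of that quintile. Its members ARID1B (-0.26) and ARID1A (-0.39) lay farther below. SMARCA4, SMARCB1 and ARID1A are in the quintile with the highest GC content. After a trend with length and GC content was removed from each library, 8 of 10 genes passed. The shares of all genes given above are those with the trend kept, so that the counts here have no background beside them. ARID1A and SMARCA4 were then at -0.20 each, SMARCB1 at 0.22, SMARCA2 and SMARCD1 at -0.12 each, PBRM1 at -0.096, ARID2 at -0.072 and SMARCC1 at -0.052. SMARCC2 (-0.059, adjusted p = 0.085) and ARID1B (-0.027, adjusted p = 0.56) no longer passed. Cisplatin in sh6A+6B cells, treated in the same way, still lowered 9 genes, ARID1A at -0.25, SMARCD1 at -0.23 and SMARCA4 at -0.19, and SMARCB1 passed as higher at 0.10. In pLKO.1 cells the rises of SMARCA2 (0.039) and PBRM1 (0.017) no longer passed, while ARID1A (-0.055, adjusted p = 0.016) and ARID2 (-0.065, adjusted p = 0.0074) passed as lower, so that 0 rose and 5 fell. What sets the length trend was not tested.

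**Figure D4:**
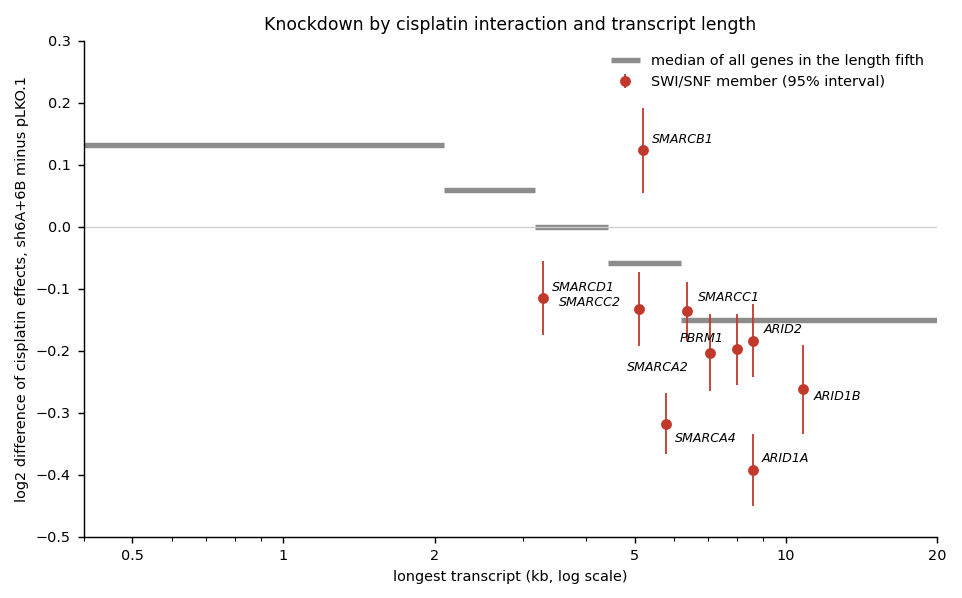
Difference of the cisplatin effects between sh6A+6B and pLKO.1 cells (vertical axis, log2) against the longest transcript of a gene (horizontal axis, kb, log scale), for the 10 members and for the median of each length quintile of all genes. The quintile medians run from 0.13 to -0.15. ARID1A and SMARCA4 lie farthest below them, at -0.39 and -0.32, and ARID1B is at -0.26. SMARCA2 and PBRM1 (-0.20 each), ARID2 (-0.18) and SMARCC1 (-0.14) lie nearer the -0.15 of their own, longest quintile. SMARCB1, at 0.12, lies above the median of its own quintile, -0.058.

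In the GSK-J4 experiments the interaction passed for 1 member. It was -0.16 ± 0.041 for SMARCA4 in 2102EP-C1 cells (adjusted p = 0.038), where 1 of 10 passed as negative (1.64% of all genes) and 0 as positive (0.734%). This call was lost with a replicate block in the fit, and without the length and GC trend it was -0.032. It was also lost in 9 of 12 fits that left out a library (values -0.18 to -0.14, adjusted p 0.055 to 0.13). Those were the fits without Control replicate 1 or 3, any Cisplatin library, GSK-J4 replicate 1 or 2 or Combination replicate 2 or 3. ARID1A was at -0.11 (adjusted p = 0.23) and SMARCA2 at -0.14 (adjusted p = 0.14), with 3 members under an unadjusted p of 0.05. By sign alone 6 members of 2102EP-C1 cells were above 0 and 4 below. For NT2/D1-A4 0 members passed as positive (0.0% of all genes) and 0 as negative (0.0426%). There 0 had an unadjusted p under 0.05, and 0 passed with limma-voom. By sign alone 9 were above 0 and 1 below. The values ran from -0.11 (SMARCA2) to 0.11 (ARID1A), and the NT2/D1-A4 interval for ARID1A, -0.071 to 0.29, does not reach its value in the knockdown experiment. The medians were 0.017 and 0.054.

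Cells with both interventions were also compared with untreated cells, a comparison that shares its untreated libraries with those above. In sh6A+6B cells with cisplatin all 10 genes passed against pLKO.1, with 9 that fell (31.7% of all genes) and 1 that rose (30.9%). ARID1A was 30.1% lower (-0.52 ± 0.020, adjusted p = 3.4e-16), SMARCC2 24.5% lower (-0.41, adjusted p = 3.6e-14) and SMARCA4 20.3% lower (-0.33 ± 0.017, adjusted p = 4.7e-14). ARID1B and PBRM1 were at -0.30 each, SMARCD1 at -0.26, ARID2 at -0.25, SMARCC1 at -0.19 and SMARCA2 at -0.10. SMARCB1 was at 0.098 (adjusted p = 0.00094). Without the length and GC trend all 10 still passed in the same direction, but ARID1A moved to -0.31, SMARCA4 to -0.10, ARID1B to -0.13 and SMARCB1 to 0.29.

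In NT2/D1-A4 cells the Combination changed 9 genes against Control, with 2 that rose (27.5% of all genes) and 7 that fell (26.5%). The number that rose was near the background. SMARCC2, at 5.19, 5.08 and 4.98 log2 CPM, was 34.2% lower (-0.60 ± 0.055, adjusted p = 3.3e-08), and SMARCA2, at 5.09, 5.02 and 5.03, was 46.3% higher (0.55 ± 0.056, adjusted p = 1.4e-07). ARID1A was at -0.37, ARID2 at -0.28, SMARCC1 at -0.27, SMARCD1 at -0.26, SMARCA4 at -0.25, PBRM1 at -0.21 and SMARCB1 at 0.19, all without overlap, while ARID1B (-0.062) did not pass.

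In 2102EP-C1 cells 5 genes passed with the Combination, with 3 that rose (27.4% of all genes) and 2 that fell (25.6%). Both counts were near the background. SMARCA2 rose by 25.3% (0.33 ± 0.036, adjusted p = 2.3e-08), SMARCB1 by 9.57% (0.13 ± 0.036, adjusted p = 0.0033) and PBRM1, at 7.82, 7.89 and 7.82 against 8.02, 7.98 and 7.98 log2 CPM, by 10.8% (0.15 ± 0.038, adjusted p = 0.0019). ARID1A was 14.3% lower (-0.22 ± 0.035, adjusted p = 6.2e-06) and SMARCA4 9.83% lower (-0.15 ± 0.029, adjusted p = 8.8e-05). Without the length and GC trend ARID1A was at -0.13 and still passed, PBRM1 was at 0.014 and did not, and SMARCA4 was at 0.015. Over all genes of this comparison the median ran from 0.10 in the quintile with the lowest GC content to -0.21 in the highest. The medians of the 10 genes were -0.28 in the knockdown experiment, -0.26 in NT2/D1-A4 and 0.0078 in 2102EP-C1 cells.

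Because SMARCA2 and SMARCA4 occupy the same place in the complex, the ratio of their reads was followed in each library, as were those of SMARCC2 to SMARCC1 and ARID1B to ARID1A. SMARCA2 reads were 6.10% of SMARCA4 reads in NT2/D1-A4 Control, 6.83% with cisplatin, 10.7% with GSK-J4 and 10.6% with the Combination. The log2 ratio was -3.98, -4.06 and -4.06 in the Control libraries and -3.25, -3.21 and -3.23 with GSK-J4, without overlap. In 2102EP-C1 cells the share went from 13.3% in Control to 17.3% with GSK-J4 and 18.5% with the Combination. In the knockdown experiment it was 15.7% in pLKO.1, 15.9% in sh6A+6B and 18.3% in sh6A+6B cells with cisplatin, where both ATPases fell and SMARCA4 fell more.

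ARID1B reads were 51.2% of ARID1A reads in NT2/D1-A4 Control, 54.9% with cisplatin, 63.3% with GSK-J4 and 63.2% with the Combination. In 2102EP-C1 cells they were 44.3% in Control, 45.4% with cisplatin, 47.2% with GSK-J4 and 53.2% with the Combination. In the knockdown experiment they were 44.1% in pLKO.1 and 45.7% with cisplatin, 45.2% in sh6A+6B and 51.3% with cisplatin, so that sh6A+6B alone was not above cisplatin alone. SMARCC2 was lower relative to SMARCC1 in treated NT2/D1-A4 cells. The mean log2 ratio was -3.23 in Control, -3.37 with cisplatin, -3.44 with GSK-J4 and -3.57 with the Combination. In the knockdown experiment it was -2.88 in pLKO.1 and -3.01 with cisplatin, -2.97 in sh6A+6B and -3.10 with cisplatin. In 2102EP-C1 cells it was -2.88 in Control, -3.02 with cisplatin, -2.85 with GSK-J4 and -2.92 with the Combination. Cisplatin alone thus went with a lower ratio in all 3 experiments. These ratios are of reads without correction for length and were not tested.

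**Figure D5:**
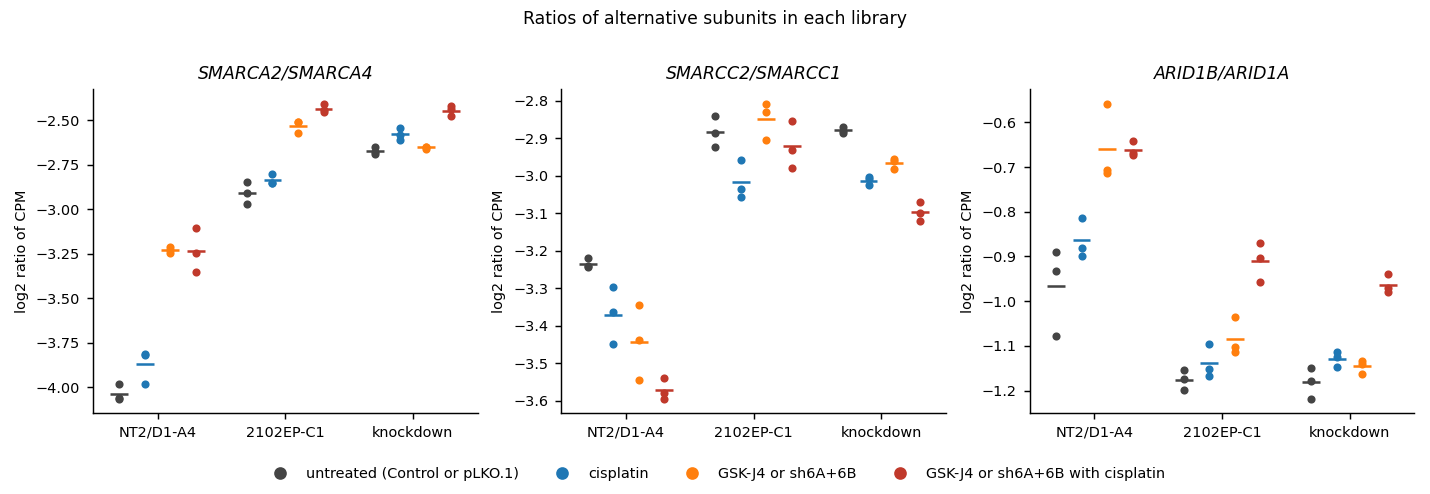
Log2 ratio of CPM (vertical axis) of SMARCA2 to SMARCA4, SMARCC2 to SMARCC1 and ARID1B to ARID1A in each library, by experiment and arm, with lines at arm means. The SMARCA2 to SMARCA4 ratio stands at -3.23 in both GSK-J4 arms of NT2/D1-A4 cells against -4.04 in Control.

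The other subunits of the complexes were counted from a list of 21 genes, of which 20, 19 and 19 were measured. After GSK-J4 1 rose and 11 fell in NT2/D1-A4, and 4 rose and 5 fell in 2102EP-C1 cells, and with sh6A+6B 3 rose and 8 fell. The shares of all genes that rose and fell were 24.5% and 23.8%, 19.2% and 16.0%, and 25.6% and 27.2% in that order, so that the rises in 2102EP-C1 cells were near the background. DPF1, a PHD finger subunit of the neuronal BAF form, fell in all 3, by 0.45, 0.40 and 0.39 on the log2 scale. BCL11B, a zinc finger subunit, fell by 0.55 in NT2/D1-A4 and 0.35 in sh6A+6B cells, while BCL7C rose by 0.40 in NT2/D1-A4 cells and fell by 0.21 in sh6A+6B cells. PHF10, of PBAF, rose by 0.20 in 2102EP-C1 cells after GSK-J4 and fell by 0.22 with sh6A+6B. BRD9, of the noncanonical complex, rose by 0.21 with sh6A+6B. BCL11A (-0.29, NT2/D1-A4), BCL7A (0.20, 2102EP-C1) and BICRA (-0.19, 2102EP-C1) completed the largest changes.

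Cisplatin changed 0 up and 3 down of these other subunits in NT2/D1-A4 Control cells, where 5.85% of all genes rose and 3.58% fell. It changed 0 and 1 in 2102EP-C1 cells (3.06% and 1.02% of all genes) and 1 and 10 in pLKO.1 cells (17.9% and 18.2%). With cisplatin in targeted cells 0 rose and 0 fell in NT2/D1-A4, where 0.712% and 0.548% of all genes did. The counts were 0 and 3 in 2102EP-C1 (7.64% and 8.1% of all genes) and 2 and 11 in sh6A+6B cells (22.1% and 22.7%). The interaction in the knockdown experiment passed as positive in 3 and as negative in 6 of 19, against 17.2% and 18.0% of all genes. Its median was -0.025 on the log2 scale against -0.19 for the 10 members, a difference that was not tested. The interaction was 0.29 for the actin-related subunit ACTL6A (adjusted p = 1e-07). It was -0.29 for BICRA and for BICRAL, alternative subunits of the noncanonical complex (adjusted p = 0.00096 and 0.00064), and -0.26 for BCL11B (adjusted p = 0.021). Against untreated cells the arms with both interventions had 1 that passed as higher and 12 as lower in NT2/D1-A4, against 27.5% and 26.5% of all genes. They had 5 and 9 in 2102EP-C1 (27.4% and 25.6%) and 4 and 11 in knockdown cells (30.9% and 31.7%). The ATP-dependent remodelers of the ISWI and INO80, SRCAP and TIP60 families had 22 genes listed and measured. After GSK-J4 they had 1 that passed as higher and 17 as lower in NT2/D1-A4 (24.5% and 23.8% of all genes) and 3 and 10 in 2102EP-C1 (19.2% and 16.0%). With sh6A+6B they had 5 that passed as higher and 8 as lower (25.6% and 27.2%). Their knockdown interaction passed as positive in 5 and as negative in 14 of 22, beside the same 17.2% and 18.0%, with a median of -0.19.

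The genes whose levels over the 12 libraries of a table were most like the mean of the 10 members were SNX27, HNRNPUL1 and LARP1 in NT2/D1-A4 cells (Pearson's r = 0.975, 0.974 and 0.974), CREBBP, SMCR8 and CCDC97 in 2102EP-C1 cells (0.938, 0.912 and 0.904) and EIF4G1, NDST1 and CREBBP in the knockdown experiment (0.996, 0.996 and 0.995). These were the 3 highest of 9255, 9404 and 9585 genes with a mean over 3 log2 CPM, and the 12 points share their arms. Each member was set against the mean of the other 9 in the same way. In the knockdown experiment r was 0.735 (SMARCD1) to 0.997 (ARID1A) for 9 genes and -0.67 for SMARCB1. In NT2/D1-A4 cells SMARCA2 (-0.78) and SMARCB1 (-0.71) ran against the rest and ARID1A (0.95) followed it most closely, while in 2102EP-C1 cells r ran from -0.35 (SMARCA4) to 0.76 (SMARCC2).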

How the data were processed

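RNA was made into stranded mRNA libraries and sequenced on 36 libraries of 12 arms. Per the study's methods, the authors used Trimmomatic (quality 28, minimum length 30), STAR on GRCh38 and featureCounts. They removed genes that did not exceed 0.5 CPM in 2 or more samples, scaled by TMM and tested with limma. Tool versions and the strand setting are not given in the sources used here. The deposited values are log2 CPM at TMM-scaled library sizes with a prior count of 3. Under that formula 100% of values under 50 reads came out whole within 0.05, which gave the reads and depth per library.

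For each of the 3 experiments a model with arm means was fitted to all 12 libraries and gave 5 contrasts (limma 3.58.1, limma-trend, R 4.3.3, two-sided). Benjamini-Hochberg adjustment ran over all genes of a table, and an adjusted p under 0.05 with no limit on fold was called a change. Shares of all genes are those of this fit, so that counts under the alternatives have no background beside them. Overlap of libraries between arms is description only, since the share of all genes without overlap is not given. Alternatives were a 1.3-fold limit, a prior count of 0.5, a filter on mean log2 CPM over 1, scaling to library size only, limma-voom, only the 6 libraries compared, a replicate block, removal of a spline trend with length and GC content (4 degrees of freedom, with or without the block) and leaving out each library. The fit was also run on simulated data with planted changes larger than many of the calls here, so that run does not bear on the smallest calls. Length, GC content and names came from GENCODE 44, and promoters and positions from RefSeq (GRCh38.p14). Tables and figures were made with pandas 2.3.3, numpy 2.4.6, scipy 1.17.1 and matplotlib 3.10.9 (Python 3.11.15).

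The named genes were all 10 members in every comparison, up to 4 other subunits per comparison with the largest log2 fold changes that passed, 3 genes per table most like the member mean, and KDM6A, KDM6B and 4 p53 targets as checks. The members and lists were chosen with earlier results of these data known. Raw reads and proteins were not analysed here.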

Additional observations from a re-analysis of the deposited data

Results flagged for a closer look

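Responses to cisplatin that differed with demethylase targeting, by a test of the interaction, were found for 1 member in 2102EP-C1 cells with GSK-J4, SMARCA4 at -0.16 on the log2 scale. That call was lost in 9 of 12 fits that left out a library, with a replicate block and, at -0.032, without the length and GC trend. In the knockdown experiment they were found for ARID1A (-0.39), SMARCA4 (-0.32), ARID1B (-0.26), SMARCA2 (-0.20), PBRM1 (-0.20), ARID2 (-0.18), SMARCC1 (-0.14), SMARCC2 (-0.13), SMARCD1 (-0.11) and SMARCB1 (0.12), of which SMARCC2 and ARID1B no longer passed without that trend. A further 2 cases were flagged because the libraries of each line lay on opposite sides of their Control without overlap. They were picked by that rule from the members, and the share of all genes that meet it is not given. SMARCD1 with GSK-J4 was at -0.13 in NT2/D1-A4 and 0.041 in 2102EP-C1 cells, and PBRM1 with the Combination was at -0.21 and 0.15. The SMARCD1 value of 2102EP-C1 did not pass (adjusted p = 0.32 with limma) and its NT2/D1-A4 call was lost with library size only (-0.087), and the PBRM1 call of 2102EP-C1 was lost without the length and GC trend (0.014). The difference between the lines was not tested for either gene.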

How the results depend on the processing

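Of 71 called values of the members, 71 were kept with limma-voom, with a prior count of 0.5 and with the filter on low values, 69 with library size only and 62 without the length and GC trend. Leaving out a library kept 829 of 852. With a 1.3-fold limit the members called were 0, 2, 2 in NT2/D1-A4 cells (cisplatin, GSK-J4, Combination), 0 in each of the 5 comparisons of 2102EP-C1 cells with GSK-J4, and 0, 0, 2, 1 and 1 in the knockdown experiment (cisplatin, knockdown, both, cisplatin in knockdown, interaction). With 6 libraries alone cisplatin called 3 in each line. For none of the counts under these settings is a share of all genes given. Without the length and GC trend, alone or with the replicate block, 5 were called for cisplatin and 1 for cisplatin after GSK-J4 in NT2/D1-A4 cells, and 4 for GSK-J4 and 1 for cisplatin after GSK-J4 in 2102EP-C1 cells. The cisplatin count in 2102EP-C1 cells was 0 with library size only.

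Whether replicate numbers pair the samples cannot be settled from these values. Of 18 same-number correlations 4, 2 and 7 were over 0.1 in NT2/D1-A4, 2102EP-C1 and knockdown libraries, the highest at 0.48, 0.14 and 0.50. Their medians were -0.025, -0.012 and -0.0021, against -0.0071, -0.02 and 0.0098 for pairs of other numbers. The replicate block left 0 calls for cisplatin and 0 for the interaction in 2102EP-C1 cells, losing SMARCD1 and SMARCA4, and kept 69 of 71. Leaving out a library gave 0 to 2 calls for cisplatin and 0 to 1 for cisplatin after GSK-J4 in NT2/D1-A4 cells, and 0 to 2 for cisplatin, 1 to 2 for GSK-J4 and 0 to 4 for the interaction in 2102EP-C1 cells.

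Without the length and GC trend, with and without the block, the sign turned for SMARCA4 with the Combination in 2102EP-C1 cells (0.015) and for values that had not passed: with GSK-J4 ARID1B in NT2/D1-A4 (0.013) and SMARCA4 (0.028), SMARCC1 (-0.068) and PBRM1 (-0.026) in 2102EP-C1 cells, with cisplatin in pLKO.1 SMARCC1 (-0.000495), ARID1B (-0.037) and ARID2 (-0.065), with knockdown SMARCA2 (-0.047), SMARCA4 (0.090) and SMARCD1 (0.021), and SMARCB1 with cisplatin in knockdown cells (0.10). With library size only it turned for ARID1B with GSK-J4 in NT2/D1-A4 (0.037), SMARCA4 (0.0041) and SMARCD1 (0.0070) with knockdown and SMARCB1 with cisplatin in knockdown cells (0.0055). Leaving out a library turned ARID1B with GSK-J4 in NT2/D1-A4 (-0.034 to 0.019), ARID2 (-0.051 to 0.012), SMARCA4 (-0.035 to 0.0022) and SMARCC1 (-0.021 to 0.019) with GSK-J4 in 2102EP-C1, SMARCA2 (-0.0027 to 0.014) and SMARCD1 (-0.027 to 0.0025) with knockdown, SMARCA4 with cisplatin in pLKO.1 (-0.0087 to 0.012) and SMARCB1 with cisplatin in knockdown cells (-0.027 to 0.019). None of these last had passed. Beyond the fewer libraries and the fold limit, the cause was not tested. The spread between triplicates limits NT2/D1-A4 cells most.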
